A study of Mus musculus with 9 samples.

Results

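The KLHL and KCTD genes were followed through RNA sequencing of the paraventricular nucleus (PVN) of the hypothalamus. Members were selected on their name and on their mean raw count: they were all genes of the deposited count table whose symbol is Klhl or Kctd followed by a number and whose mean raw count over the 9 samples was at least 10. The symbol matched 58 genes, and 57 were members, 37 KLHL and 20 KCTD, among 27179 genes in the table. All 57 were among the 17344 genes that passed the filter on low counts and were tested. The matching gene below the limit was Kctd19, with a mean count of 5.11, and the members closest above it were Klhl31 (18.4), Klhl41 (27.0) and Klhl38 (28.8).

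The study asked how a high fat diet changes gene expression in the PVN, and whether the antibiotic minocycline, given on the same diet, alters that change. Male wild type mice, C57BL/6J in the study's methods and C57BL/6 in the sample labels, were 5 weeks old at the start and were assigned to 3 groups of 3 mice, and each sample was a tissue punch of the PVN from 1 mouse. Control mice ate a chow diet with 16% of calories from fat for 12 weeks and drank tap water. HFD mice ate a diet with 60% of calories from fat for 12 weeks and drank tap water. HFD+Mino mice ate the 60% fat diet for the same time and received minocycline in the drinking water, 40 mg/kg/day, over the last 6 weeks. Age is entered in the sample labels as postnatal day 35, which is the age at the start. No group received minocycline on the chow diet, so the drug was compared only on the high fat diet.

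Cullin-3 is the scaffold of a family of ubiquitin ligases in which a substrate adaptor with a BTB domain binds the cullin and presents a target protein for ubiquitination. KLHL proteins join the BTB domain to a BACK domain and to Kelch repeats that hold the substrate. KCTD proteins carry a BTB domain alone or with short family-specific ends, and some of them, such as the auxiliary subunits of the GABA-B receptor, act outside the ligase. In brain, members of both families set the turnover of kinases, small GTPases, receptors and cytoskeletal proteins.

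Kctd2, Klhl9 and Klhl11 passed the significance rule described with the comparisons, and the sequence upstream of each is shown because these genes carry the results. The sequences are the RefSeq windows of up to 250 bases before the gene start in GRCm38.p6, written on the strand of the gene. The Kctd2 window ends at the earliest start of the gene and holds 218 bases. Capitals mark a match to a form of the binding motif of the transcription factor NRF1, spelled GCGC, any base and then TGCGC, which is read on the opposite strand in the windows of Klhl9 and Klhl11.
Klhl9, chr4:88722509-88722758, minus strand: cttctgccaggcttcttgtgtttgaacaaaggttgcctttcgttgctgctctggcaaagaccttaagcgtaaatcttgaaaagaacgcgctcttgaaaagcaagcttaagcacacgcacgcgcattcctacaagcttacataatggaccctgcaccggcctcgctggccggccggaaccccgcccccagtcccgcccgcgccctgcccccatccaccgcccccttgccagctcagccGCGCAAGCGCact
Klhl11, chr11:100472783-100473032, minus strand: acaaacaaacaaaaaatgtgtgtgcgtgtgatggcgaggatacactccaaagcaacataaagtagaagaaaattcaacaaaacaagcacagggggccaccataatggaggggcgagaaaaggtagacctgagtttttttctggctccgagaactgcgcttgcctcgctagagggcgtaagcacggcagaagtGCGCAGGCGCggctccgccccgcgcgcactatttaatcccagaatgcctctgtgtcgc
Kctd2, chr11:115419876-115420093, plus strand: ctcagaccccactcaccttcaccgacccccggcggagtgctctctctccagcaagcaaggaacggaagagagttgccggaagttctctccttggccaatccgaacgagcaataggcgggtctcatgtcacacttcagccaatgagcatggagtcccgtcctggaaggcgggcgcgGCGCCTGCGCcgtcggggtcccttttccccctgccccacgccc
This motif was chosen after the sequences had been seen. It was present before 6 of the 45 members with a window (13.3%) and before 7.91% of the 13063 tested genes with a window of the same length. The GC box GGGCGG was present before 30 of the 45 members (66.7%) and before 59.5% of the tested genes, on either strand. A match describes the letters in the window and was not tested as a binding site.

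Kctd2, Kctd5 and Kctd17 form a clade of KCTD proteins that bind G protein beta-gamma subunits, and their coding sequences are related closely enough that mixed counting had to be checked. Aligned coding sequences were 75.2% identical between Kctd2 and Kctd5 and 74.9% identical between Kctd2 and Kctd17. No run of 50 bases of a Kctd2 transcript occurred in another gene (0 of 2600). The 100 coding bases richest in G and C, the part hardest to read, are shown for the 3 genes from GENCODE M21 (GRCm38). Capitals mark the longest run of G and C. The stretches start at coding base 63 in Kctd2, 24 in Kctd5 and 3 in Kctd17. They are not aligned positions and do not measure how far the genes differ.
Kctd2, chr11:115420230-115420329, plus strand: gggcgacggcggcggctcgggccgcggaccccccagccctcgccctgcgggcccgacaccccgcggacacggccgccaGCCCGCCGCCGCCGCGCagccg
Kctd5, chr17:24073306-24073405, minus strand: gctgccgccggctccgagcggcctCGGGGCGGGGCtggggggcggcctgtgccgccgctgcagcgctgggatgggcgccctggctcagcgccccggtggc
Kctd17, chr15:78428660-78428759, plus strand: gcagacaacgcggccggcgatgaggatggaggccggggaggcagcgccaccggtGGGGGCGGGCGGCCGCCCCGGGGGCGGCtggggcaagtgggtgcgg
The share of G and C in these stretches was 88% in Kctd2, 84% in Kctd5 and 81% in Kctd17. Klhl9 and its closest relative Klhl13 were 81.7% identical over the coding sequence. In Klhl9, 661 exon bases overlap Gm26566 on the opposite strand, so that 14.8% of the 50-base runs of its transcript also belong to that gene, and the library kit does not mark strand. The corresponding overlap was 1530 bases for Kctd10 with Myo1h and 2455 bases for Kctd18 with Sgo2a. It was 3805 bases for Kctd12 with Gm26778 and 1446 bases for Klhl38 with Gm15943. Klhl21 overlapped Gm9768 by 817 bases, Klhl14 overlapped 4930426D05Rik by 610 and Klhl40 overlapped Gm47108 by 540. The counts of these members are uncertain for that reason. Some other members had smaller overlaps.

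Total counts were between 17728590 and 42326213 per sample. Samples of a group did not hold the same tissue mix. The summed level of 6 PVN markers (Sim1, Otp, Avp, Oxt, Crh and Trh) ran from 27.8 to 2563 CPM (read counts scaled to library size) in Control, from 2479 to 3726 in HFD and from 3104 to 37726 in HFD+Mino, so the PVN markers were close to absent in 1 Control library, replicate 1, in which Otp had 0 counts. No other marker gene in these lists had 0 counts in a sample. The sum of 5 myelin markers ran from 3315 to 27545 CPM in Control, from 2271 to 6225 in HFD and from 1956 to 5354 in HFD+Mino, and that of 3 neuron markers from 3189 to 5757, from 2254 to 3695 and from 2612 to 2825. The sum of 4 astrocyte markers (Gfap, Aqp4, Aldh1l1 and Gja1) ran from 638 to 1072 CPM in Control, from 738 to 835 in HFD and from 346 to 545 in HFD+Mino, and that of 5 microglia markers from 137 to 169.7, from 199 to 216 and from 129.9 to 183. The sum of 3 ependyma markers ran from 4.02 to 89.1 CPM in Control, from 99.4 to 179 in HFD and from 202 to 417 in HFD+Mino, and that of 4 markers of neighbouring nuclei (Pmch, Pomc, Agrp and Vip) from 26.2 to 2568, from 7.34 to 27.3 and from 9.59 to 69.3. Rn45s, the ribosomal RNA precursor, had 239 to 461 CPM in Control, 3477 to 3829 in HFD and 426 to 1346 in HFD+Mino. The members together took 0.115% and 0.125% of the counts in HFD+Mino replicates 1 and 2 and between 0.199% and 0.234% in the other 7 samples.

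Levels between genes were compared per kilobase of exon, for the 56 members with a length. Kctd13, an adaptor of RhoA encoded in the human 16p11.2 region, had the highest mean level over the 9 samples, 62.1 CPM per kb, followed by Kctd17 (57.6), Klhl7 (36.4), Klhl22 (26.7), Klhl13 (24.8) and Kctd2 (22.5). The lowest were Klhl31, a gene of skeletal muscle, at 0.102 CPM per kb and Klhl3, a WNK kinase adaptor, at 0.167. In CPM, Kctd13 had 173, 143 and 139 in Control, 129.5, 172 and 152 in HFD and 179, 114 and 188 in HFD+Mino, and its groups overlapped. Klhl22, which regulates mTORC1 through DEPDC5, also overlapped between all groups, with means of 141.2 ± 27.8, 152.7 ± 8.81 and 126.0 ± 29.1 CPM (SD, n = 3).

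**Figure D1:**
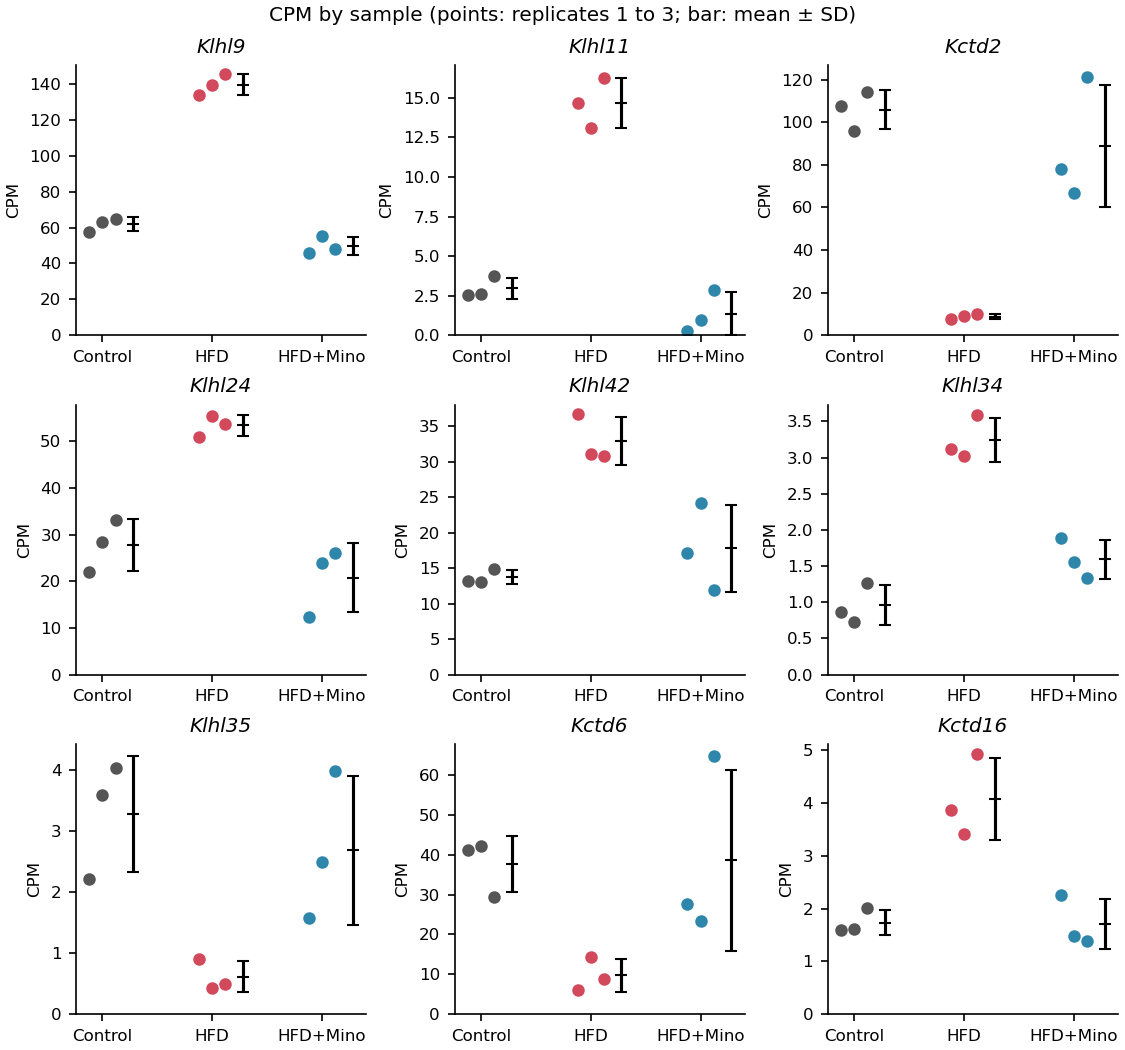
CPM of 9 KLHL and KCTD genes in each sample (points, replicates 1 to 3 of each group) with the group mean ± SD (black bar), on linear axes that start at 0. Klhl9 and Klhl11 were higher and Kctd2 lower in each HFD sample than in any other sample. The HFD+Mino samples of Klhl9 all lay below the Control samples. In Klhl11, Kctd2 and Kctd6 the HFD+Mino and Control samples overlapped, with a wider spread in HFD+Mino.

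A member was called changed at an adjusted p under 0.01 (edgeR quasi-likelihood test, Benjamini-Hochberg over the 17344 tested genes) with a change of at least 1.5-fold. In a 3-way test over the groups, HFD had also to be the highest or the lowest group. The 3-way test called 1 KLHL gene higher in HFD, Klhl9, and 1 KCTD gene lower, Kctd2, beside 0.917% of all tested genes higher and 1.21% lower. The members were chosen with earlier results of these data known, and the comparisons of HFD with Control and of HFD+Mino with HFD share the HFD samples, so opposite signs in these comparisons are not independent.

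Kctd2 lies on chromosome 11 (115420094 to 115431274, GRCm38.p6) and encodes an adaptor that acts on G protein beta-gamma subunits. It had 107.7, 96.05 and 114.3 CPM in Control, 7.38, 9.02 and 9.73 in HFD and 78.2, 66.7 and 121.2 in HFD+Mino. The 3 HFD samples lay far below the other 6, and the HFD+Mino samples spread around the Control range. Kctd2 fell by 3.60 ± 0.28 on the log2 scale (SE) in HFD against Control, a level 12.1-fold lower (edgeR adjusted p = 0.000113), and rose by 3.35 ± 0.27 in HFD+Mino against HFD, 10.2-fold (edgeR adjusted p = 0.000198). Both calls held without any single library, and the 3-way call was lost without HFD replicate 3. The other genes of its clade changed less. Kctd17 went in the same direction, with log2 fold changes of -0.71 ± 0.27 in HFD against Control (edgeR adjusted p = 0.168) and 0.43 ± 0.27 in HFD+Mino against HFD. Every HFD sample of Kctd17 was below every Control sample. Kctd5 was at -0.14 ± 0.24 and -0.23 ± 0.24. Kctd5 had 58.1 ± 3.41, 52.5 ± 3.96 and 44.8 ± 15.3 CPM in Control, HFD and HFD+Mino (SD, n = 3) and Kctd17 had 180.4 ± 59.8, 110.1 ± 17.6 and 148.8 ± 31.5, and neither was called in any comparison.

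Klhl9, on chromosome 4 (88718292 to 88722508), encodes an adaptor that works with Klhl13 to ubiquitinate the mitotic kinase Aurora B. It had 57.4, 62.9 and 65.0 CPM in Control, 133.8, 139.5 and 145.4 in HFD and 46.0, 55.4 and 47.9 in HFD+Mino. The groups did not overlap, and the highest values were the 3 HFD samples. Klhl9 rose 2.26-fold in HFD against Control (log2 1.18 ± 0.19, edgeR adjusted p = 0.0047) and fell by 1.49 ± 0.19 on the log2 scale in HFD+Mino against HFD (edgeR adjusted p = 0.00168). The HFD against Control call was lost without any single Control or HFD library, and the HFD+Mino against HFD call without any single HFD library, whereas the values stayed in the same direction. The 3-way call was lost without Control replicate 2 or any single HFD library. Klhl13 was not called: its CPM were 115.3, 167.1 and 115.4 in Control, 131.5, 98.7 and 107.0 in HFD and 35.7, 96.0 and 82.5 in HFD+Mino.

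Klhl11, on chromosome 11 (100457122 to 100472782), encodes a Kelch protein that is the target of autoantibodies in a paraneoplastic encephalitis of patients with germ cell tumours. It had 2.53, 2.63 and 3.74 CPM in Control, 14.7, 13.1 and 16.3 in HFD and 0.274, 0.929 and 2.87 in HFD+Mino, the last group from counts of 8, 25 and 105. Each HFD sample was above every other sample, and the HFD+Mino and Control samples overlapped. Klhl11 fell by 3.41 ± 0.64 on the log2 scale in HFD+Mino against HFD, 10.7-fold (edgeR adjusted p = 0.00837). In HFD against Control its log2 fold change was 2.31 ± 0.61 (edgeR adjusted p = 0.0491), and the 3-way test gave an edgeR adjusted p of 0.0123, both short of the threshold. The HFD+Mino against HFD call was lost without Control replicate 2, HFD+Mino replicate 1 or 2, or any HFD replicate.

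**Figure D2:**
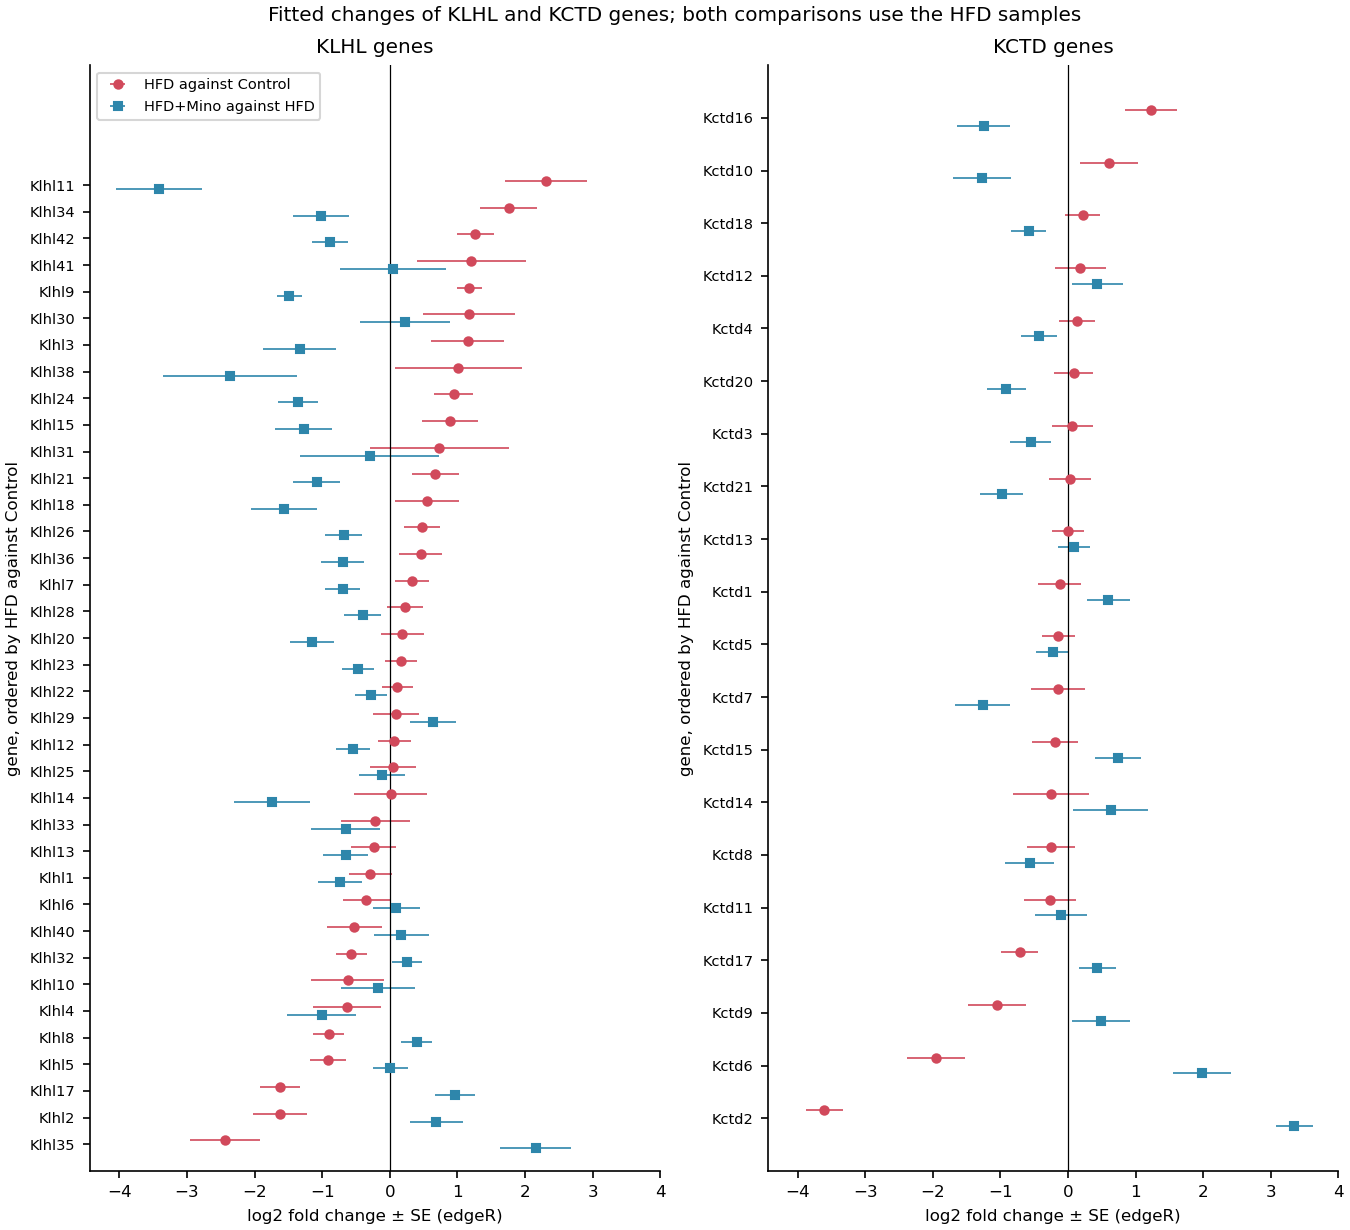
Fitted log2 fold changes (horizontal axis, points) with their SE (bars) for the KLHL genes (left) and the KCTD genes (right), for HFD against Control (circles) and HFD+Mino against HFD (squares), ordered by the former. Kctd2 was the member farthest from 0 in HFD against Control (-3.60) and Klhl11 the one farthest from 0 in HFD+Mino against HFD (-3.41), and both comparisons use the same HFD samples.

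In HFD against Control, the diet comparison, 1 of 37 KLHL genes was called higher and none lower, and 1 of 20 KCTD genes was called lower and none higher, beside 0.317% higher and 1.42% lower over all tested genes. The other large KLHL differences did not pass. Klhl35 had 2.21, 3.59 and 4.03 CPM in Control and 0.903, 0.435 and 0.498 in HFD (log2 -2.44 ± 0.52, edgeR adjusted p = 0.0211). Klhl17, or actinfilin, which binds actin at synapses, had 47.9, 53.6 and 69.6 CPM in Control and 15.1, 20.4 and 19.9 in HFD (log2 -1.62 ± 0.30, edgeR adjusted p = 0.0104). Klhl2, a WNK kinase adaptor, had 130.6, 74.8 and 73.4 CPM in Control and 26.4, 35.2 and 28.4 in HFD (log2 -1.63 ± 0.40, edgeR adjusted p = 0.0371). In all 3 genes every HFD sample was below every Control sample. On the higher side, Klhl34 had 0.869, 0.734 and 1.27 CPM in Control and 3.11, 3.02 and 3.58 in HFD (log2 1.76 ± 0.42, edgeR adjusted p = 0.0336). Klhl42, an adaptor that targets the microtubule severing protein katanin, had 13.2, 13.1 and 14.9 CPM in Control and 36.8, 31.1 and 30.9 in HFD (log2 1.26 ± 0.27, edgeR adjusted p = 0.0222). HFD and Control did not overlap in these genes either. Over the family, HFD lay above all Control samples in 12 KLHL genes and below them in 7. The genes named here were picked for their large changes. The share of all tested genes with HFD and Control apart is not given, so their separation is description only.

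Among the KCTD genes, Kctd6, which promotes degradation of HDAC1 and thereby restrains Hedgehog signalling, came closest to Kctd2. It had 41.3, 42.2 and 29.4 CPM in Control, 5.97, 14.3 and 8.89 in HFD and 27.6, 23.4 and 64.7 in HFD+Mino. Its HFD samples were below all others, but neither HFD against Control (log2 -1.95 ± 0.43, edgeR adjusted p = 0.0233) nor HFD+Mino against HFD (log2 1.99 ± 0.43, edgeR adjusted p = 0.0118) passed. Kctd9 was lower by 1.06 ± 0.43 on the log2 scale without passing (edgeR adjusted p = 0.194), with overlapping groups. A block on the replicate number over Control and HFD+Mino was chosen from correlations in these same counts, so its calls are not independent support. With it, 6 KLHL genes and 1 KCTD gene were called in HFD against Control, beside 6.22% of all genes. In the 3-way test 8 and 3 were called, beside 13.2%. Without HFD+Mino replicate 3, which belongs to neither group of HFD against Control but enters the shared fit, 4 KLHL genes (Klhl9, Klhl11, Klhl17 and Klhl42) and 2 KCTD genes (Kctd2 and Kctd6) were called, beside 3.08% of all genes.

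Counting samples gave a wider picture than the calls. The HFD samples lay above all 6 other samples in 11 KLHL genes and below them in 2, beside 13.4% and 9.62% of all tested genes, which is 29.7% and 5.41% of the family. The 11 were Klhl3, Klhl7, Klhl9, Klhl11, Klhl15, Klhl21, Klhl24, Klhl26, Klhl34, Klhl38 and Klhl42, and the 2 were Klhl17 and Klhl35. Of the KCTD genes, Kctd10 and Kctd16 lay above and Kctd2 and Kctd6 below, 10% of the family in each direction.

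In HFD+Mino against HFD, which asks what minocycline changed on the high fat diet, 2 KLHL genes were called lower, Klhl9 and Klhl11, and none higher, beside 2.16% and 1.98% of all tested genes, and 1 KCTD gene, Kctd2, was called higher and none lower. Klhl24, a Kelch protein known for kainate receptor binding and keratin turnover, had 50.9, 55.5 and 53.7 CPM in HFD and 12.4, 24.0 and 26.0 in HFD+Mino (log2 -1.36 ± 0.29, edgeR adjusted p = 0.0117). Klhl14 had 4.42, 4.38 and 5.58 CPM in HFD and 0.924, 0.446 and 2.87 in HFD+Mino (log2 -1.75 ± 0.56, edgeR adjusted p = 0.0399). Klhl38, a low-count muscle gene, had 1.66, 1.42 and 1.59 against 0.0685, 0.0371 and 0.765 CPM (log2 -2.36 ± 0.99, edgeR adjusted p = 0.0966). In these 3 genes no HFD+Mino sample reached the HFD range, and none passed. The uncalled KLHL genes with the largest positive values were Klhl35 (log2 2.15 ± 0.52, edgeR adjusted p = 0.0156), Klhl17 (0.96 ± 0.29, adjusted p = 0.0338) and Klhl2 (0.69 ± 0.39, adjusted p = 0.209).

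Of the KCTD genes below 0 in this comparison, Kctd10, a RhoA adaptor, had 80.1, 83.9 and 77.4 CPM in HFD and 27.9, 13.1 and 58.8 in HFD+Mino (log2 -1.27 ± 0.43, edgeR adjusted p = 0.0487). Kctd7, mutated in a progressive myoclonic epilepsy, had 30.0, 30.2 and 37.2 in HFD and 7.36, 8.40 and 24.8 in HFD+Mino (log2 -1.26 ± 0.40, edgeR adjusted p = 0.0392). Among the KCTD genes above 0, Kctd15, a repressor of AP-2 transcription factors, had 3.06, 2.76 and 5.03 in HFD and 6.02, 6.61 and 5.55 in HFD+Mino (log2 0.74 ± 0.34, edgeR adjusted p = 0.124). The groups were separate in all 3 genes, and HFD+Mino replicate 3 lay nearest to HFD in each of them. Kctd16 was also lower in HFD+Mino than in HFD, with separate groups (log2 -1.25 ± 0.39, edgeR adjusted p = 0.0354). In Kctd16, HFD+Mino replicate 3 lay farthest from HFD. All HFD+Mino samples were below all HFD samples in 17 KLHL and 7 KCTD genes and above them in 2 and 3, beside 23.5% and 23.3% of all tested genes. With the replicate block over Control and HFD+Mino, 10 KLHL and 5 KCTD genes were called, beside 25.6% of all genes, and without HFD+Mino replicate 3 the counts were 8 and 6, beside 21.4%.

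HFD+Mino against Control gave no call by the edgeR quasi-likelihood test among the 57 members, beside 0% of all tested genes by that test. The edgeR likelihood ratio test called no member, beside 0.611% of all tested genes. With the replicate block over Control and HFD+Mino no member was called, beside 3.18%. With the GC trend also removed, Kctd20 was called lower, beside 5.56%. DESeq2 called none of the members either, beside 1.8% of the genes to which it gave an adjusted p. At an unadjusted p under 0.05, 9 KLHL and 4 KCTD genes were lower and 0 were higher, beside 8.63% of all tested genes lower and 12.7% higher. Without HFD+Mino replicate 3, 2 KLHL genes (Klhl14 and Klhl20) and 2 KCTD genes (Kctd7 and Kctd21) were called lower, beside 6.28% of all genes called in either direction. In Kctd7 the Control samples had 34.5, 38.9 and 34.9 CPM and HFD+Mino replicates 1 to 3 had 7.36, 8.40 and 24.8, so that replicate 3 was the closest to Control.

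**Figure D3:**
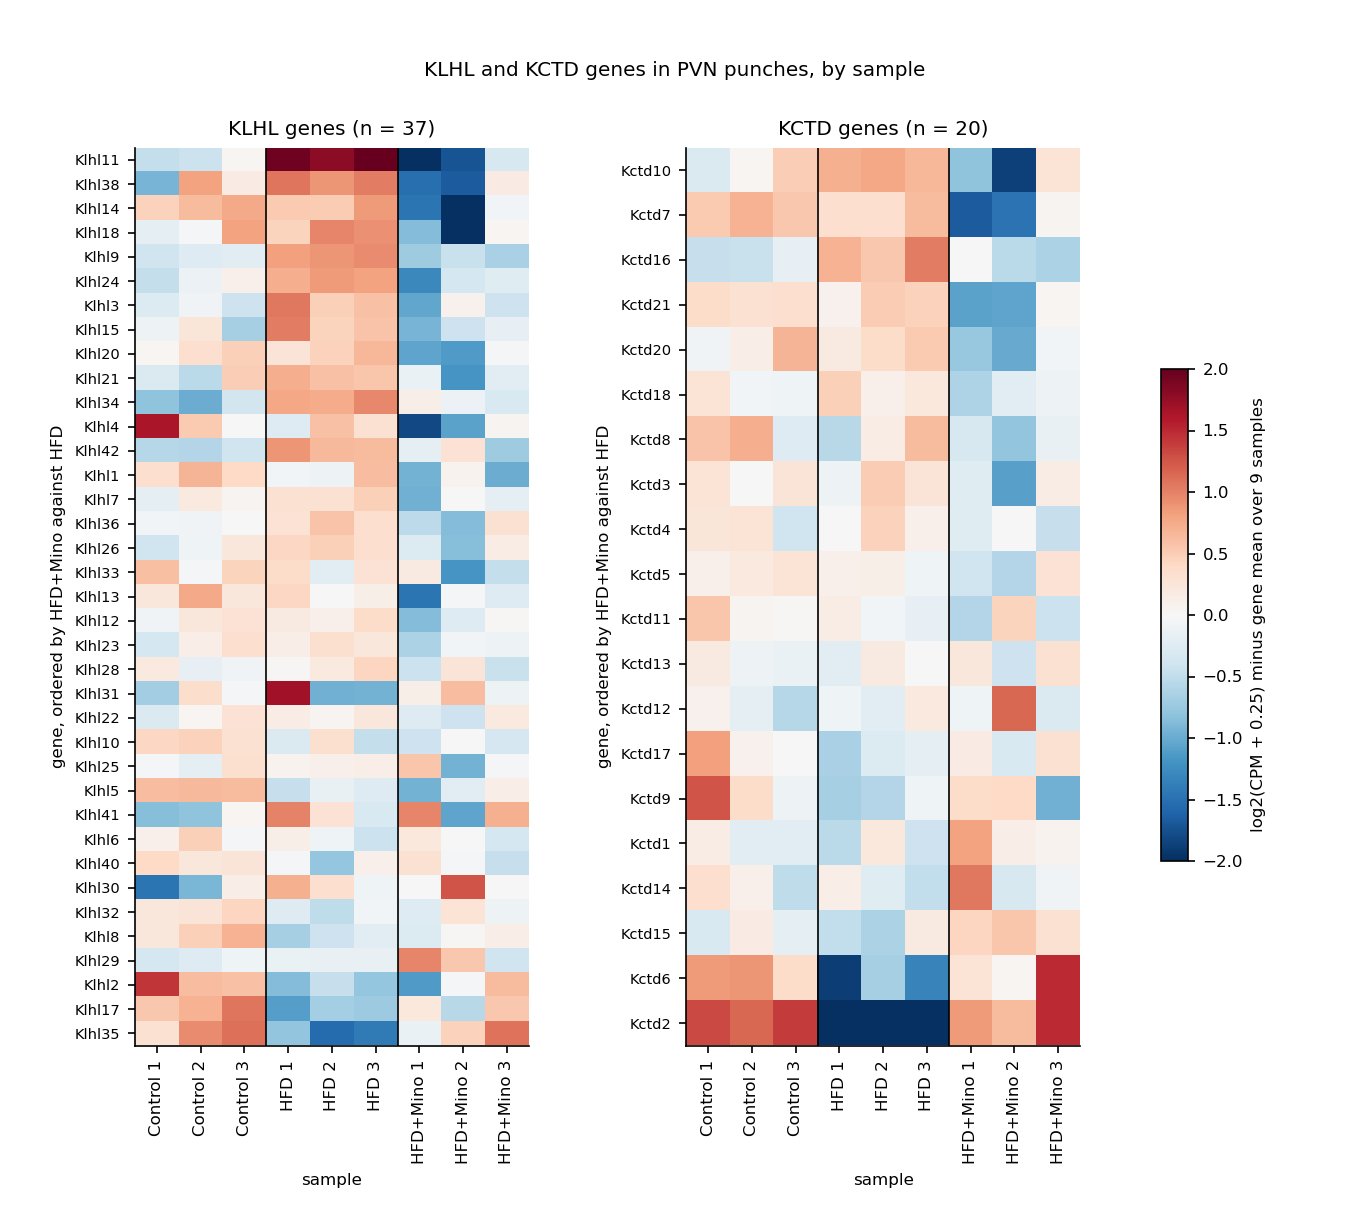
Level of each KLHL gene (left) and KCTD gene (right) in each sample, as log2(CPM + 0.25) minus the mean of the gene over the 9 samples, with colours limited to -2 and 2 and genes ordered from the lowest to the highest change in HFD+Mino against HFD. HFD samples are mostly red in the upper KLHL rows and blue in the bottom rows of both panels, with Kctd2 as the lowest KCTD gene in HFD.

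By role, the cell division adaptors Klhl9, Klhl13, Klhl18, Klhl21 and Klhl42 had a median log2 fold change of 0.67 in HFD against Control and -1.08 in HFD+Mino against HFD, with 5 of 5 below 0 in the latter and 1 called, Klhl9. The 4 growth and nutrient signalling adaptors Klhl15, Klhl20, Klhl22 and Klhl25 had medians of 0.15 and -0.71 and no call. The 8 neuronal and cytoskeletal genes (Klhl1, Klhl4, Klhl5, Klhl7, Klhl8, Klhl17, Klhl24 and Klhl32) had medians of -0.60 and -0.35 and no call. All 8 were below 0 in HFD+Mino against Control, with a median of -0.58, beside 31 of 37 and -0.37 over all KLHL genes. The pair of WNK adaptors differed from each other in sign: Klhl2 was at -1.63 and Klhl3 at 1.15 ± 0.53 (edgeR adjusted p = 0.253) in HFD against Control, on the log2 scale, and neither was called. Klhl3 had 0.869, 1.04 and 0.765 CPM in Control, 2.56, 1.62 and 1.79 in HFD and 0.411, 1.19 and 0.765 in HFD+Mino, and only the HFD samples stood apart.

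Of the members outside the rule for named genes, Klhl5, Klhl8, Klhl20 and Kctd21 are described here because of their values, and none was called. Klhl5 had 75.5, 77.0 and 76.4 CPM in Control, 35.7, 44.5 and 41.0 in HFD and 25.4, 42.6 and 53.8 in HFD+Mino (HFD against Control log2 -0.92 ± 0.26, edgeR adjusted p = 0.0699). Klhl8 had 32.5, 38.5 and 45.0 CPM in Control, 17.5, 20.8 and 23.6 in HFD and 23.0, 28.3 and 30.5 in HFD+Mino (log2 -0.91 ± 0.23, edgeR adjusted p = 0.0431). In both genes every Control sample was above all 6 samples of the high fat diet. Because the genes of this paragraph were picked for their values, such separations are description only. The share of all tested genes with them is not given. In Klhl20 and Kctd21 the HFD samples overlapped Control. Klhl20, an adaptor of the kinase DAPK1 and of PML, had 15.4, 18.8 and 20.8 CPM in Control, 17.9, 20.6 and 23.9 in HFD and 7.02, 6.65 and 14.5 in HFD+Mino (HFD+Mino against HFD log2 -1.15 ± 0.32, edgeR adjusted p = 0.0262). Kctd21, related to Kctd6 in the suppression of Hedgehog signalling, had 23.3, 22.4 and 22.9 CPM in Control, 19.3, 25.9 and 25.1 in HFD and 8.46, 8.58 and 18.5 in HFD+Mino (log2 -0.98 ± 0.32, edgeR adjusted p = 0.0407). All HFD+Mino samples of both genes were below all others, replicate 3 was the nearest to them, and without that library both genes were called lower in HFD+Mino than in HFD and than in Control. Kctd11, the third gene of the Hedgehog set, had overlapping groups with means of 4.18 ± 0.945, 3.47 ± 0.408 and 3.23 ± 1.45 CPM (SD, n = 3).

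The 6 muscle genes (Klhl30, Klhl31, Klhl33, Klhl38, Klhl40 and Klhl41) were at low levels in the PVN and none was called. Their highest group mean was 3.06 ± 0.212 CPM, of Klhl40 in Control, and their log2 fold changes in HFD against Control ran from -0.53 to 1.21. Klhl31 had 44 counts in HFD replicate 1 and 5 and 6 counts in HFD replicates 2 and 3, so its HFD mean rested on that library. Klhl10, a gene of spermatids, had 1.22, 1.27 and 1.12 CPM in Control, 0.653, 1.13 and 0.548 in HFD and 0.582, 0.854 and 0.628 in HFD+Mino, and Klhl6, a gene of B cells, had 4.25 ± 0.842, 3.34 ± 0.667 and 3.57 ± 0.718 CPM. Neither was called in any comparison.

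The KCTD subunits of the GABA-B receptor did not move as a group. Kctd16 had 1.59, 1.61 and 2.00 CPM in Control, 3.86, 3.42 and 4.93 in HFD and 2.26, 1.49 and 1.39 in HFD+Mino (HFD against Control log2 1.23 ± 0.39, edgeR adjusted p = 0.0935). Kctd12 had 11.3 ± 2.55, 12.8 ± 1.96 and 17.3 ± 10.2 CPM and Kctd8 had 18.4 ± 6.05, 15.5 ± 6.19 and 10.5 ± 2.36 (SD, n = 3), with overlapping groups in both. Among these 3 genes, the HFD samples lay outside the range of the other samples only in Kctd16. The receptor genes were not called either: Gabbr1 had 261 ± 10.8, 301 ± 32.5 and 303 ± 55.2 CPM and Gabbr2 had 56.7 ± 37.2, 28.2 ± 7.81 and 22.8 ± 20.8. Of the RhoA adaptors, Kctd13 had a log2 fold change of 0.00 ± 0.24 in HFD against Control while Kctd10 had 0.61 ± 0.43 (edgeR adjusted p = 0.452), and Rhoa itself was at 0.08 ± 0.23.

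Medians are given for each family beside those of all tested genes, and the difference between the families was not tested. In HFD against Control the median log2 fold change was 0.17 over the KLHL genes, with 24 of 37 above 0, and -0.13 over the KCTD genes, with 12 of 20 below 0. Over all tested genes it was 0.00, with 50.3% above and 49.7% below 0. In HFD+Mino against HFD the medians were -0.65 (26 of 37 KLHL genes below 0) and -0.17 (11 of 20 KCTD genes below 0). Over all tested genes the median was 0.01, with 50.3% above and 49.7% below 0. In HFD+Mino against Control they were -0.37 and -0.33, with 31 of 37 and 14 of 20 below 0, beside -0.02. The medians of HFD against Control changed with single libraries, though that of the KLHL genes stayed above 0 whichever library was left out. That of the KLHL genes was 0.03, with 20 of 37 above 0, without Control replicate 1, the library with few PVN markers, and 0.26 and 0.09 without Control replicate 3 and HFD replicate 3. That of the KCTD genes was -0.05 and -0.04 without Control replicates 1 and 2, and 0.01 and -0.06 without HFD replicates 1 and 3. The KCTD median in HFD+Mino against HFD became -0.06 when HFD+Mino replicate 1 was left out. For HFD+Mino against Control, the KCTD median became -0.19 when Control replicate 1 was left out and -0.21 when HFD+Mino replicate 2 was, and the KLHL median became -0.60 when HFD+Mino replicate 3 was. The median KLHL deviation from the gene means was 0.30, 0.33 and 0.34 (log2) in the HFD samples, -0.07, 0.20 and 0.28 in Control and -0.50, -0.21 and -0.10 in HFD+Mino. The 3 HFD samples were the highest for the KLHL genes, and the HFD+Mino samples were the lowest. Some marker lists moved with the KLHL medians and others did not. In HFD against Control, 3 of 4 astrocyte, 4 of 5 microglia and 2 of 3 neuron markers were above 0. So were 5 of 6 PVN, 3 of 3 ependyma and 3 of 4 choroid plexus markers. In HFD+Mino against HFD, 4 of 4 astrocyte, 4 of 5 microglia, 2 of 3 neuron and 4 of 5 myelin markers were below 0. The other way, 5 of 5 myelin markers and 4 of 4 markers of neighbouring nuclei were below 0 in HFD against Control. In HFD+Mino against HFD, 4 of 4 markers of neighbouring nuclei, 4 of 6 PVN markers and 2 of 3 ependyma markers were above 0. Of 3 endothelium markers, 2 were below 0 in both comparisons. The summed microglia markers were higher in the 3 HFD samples than in the other 6, and the summed astrocyte markers were lower in the 3 HFD+Mino samples than in the other 6. None of these markers was called, and their part in the KLHL medians was not tested. In a punch of tissue, a lower level can come from fewer cells of a type or from less RNA per cell, and these cannot be told apart here.

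**Figure D4:**
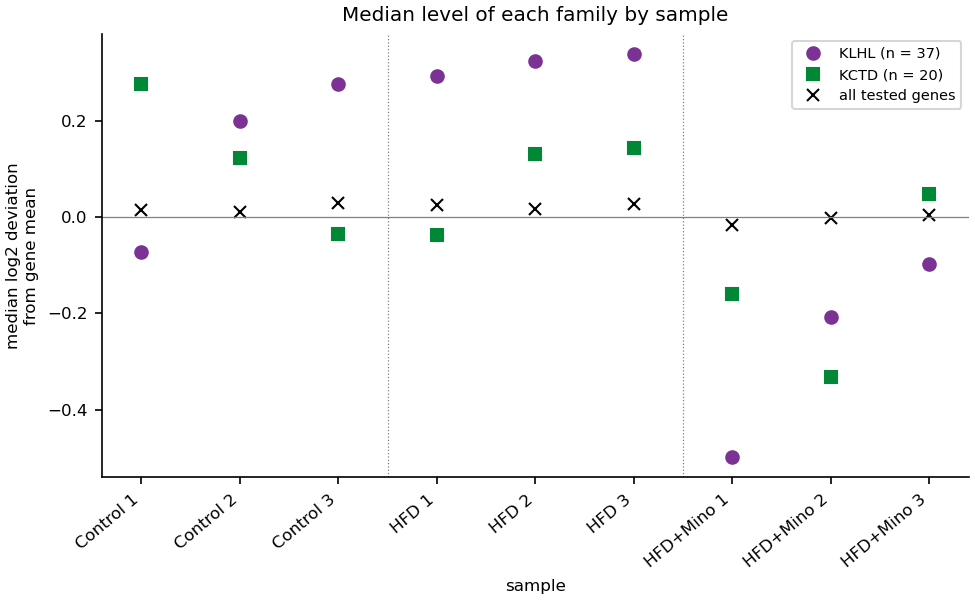
Median log2 deviation of the KLHL genes (circles), the KCTD genes (squares) and all tested genes (crosses) from the mean of each gene over the 9 samples, by sample. The KLHL median ran from -0.50 in HFD+Mino replicate 1 to 0.34 in HFD replicate 3, while the median of all tested genes stayed near 0 in each sample.

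Changes over all tested genes followed exon length. Spearman's rho of the log2 fold change with exon length was 0.31 in HFD against Control and -0.49 in HFD+Mino against HFD across 16832 tested genes, -0.10 and -0.06 across 36 KLHL genes, and 0.44 and -0.25 across 20 KCTD genes. These values describe genes measured in the same libraries and are not tests. Levels fell with exon length by 0.33, 0.25 and 0.07 on the log2 scale per doubling in HFD+Mino replicates 1 to 3 and rose by 0.16, 0.17 and 0.24 in HFD. In Control the slopes were -0.06, -0.02 and 0.16, so that Control replicate 3 was at the value of HFD replicate 1. The median exon length was 4339 bases for the KLHL genes, 3864 for the KCTD genes and 4151 for all tested genes. Among genes up to the length of 4151 bases, the median log2 fold change in HFD+Mino against HFD was -0.43 for 16 KLHL genes, -0.17 for 12 KCTD genes and 0.47 for all genes. Among longer genes it was -0.66 for 20 KLHL genes, -0.06 for 8 KCTD genes and -0.44 for all genes. KLHL genes thus had lower medians than all genes of their length class in both classes in HFD+Mino against HFD. In HFD against Control the median was 0.39 for the shorter and 0.14 for the longer KLHL genes, beside -0.19 and 0.21 for all genes of these classes. With the length trend of each sample removed, the KLHL median in HFD against Control was 0.03, with 20 of 37 above 0. It was then -0.32 in HFD+Mino against HFD and the KCTD median -0.12, beside 0.03 over all genes, and Klhl9, Klhl11 and Kctd2 were still called in that comparison.

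**Figure D5:**
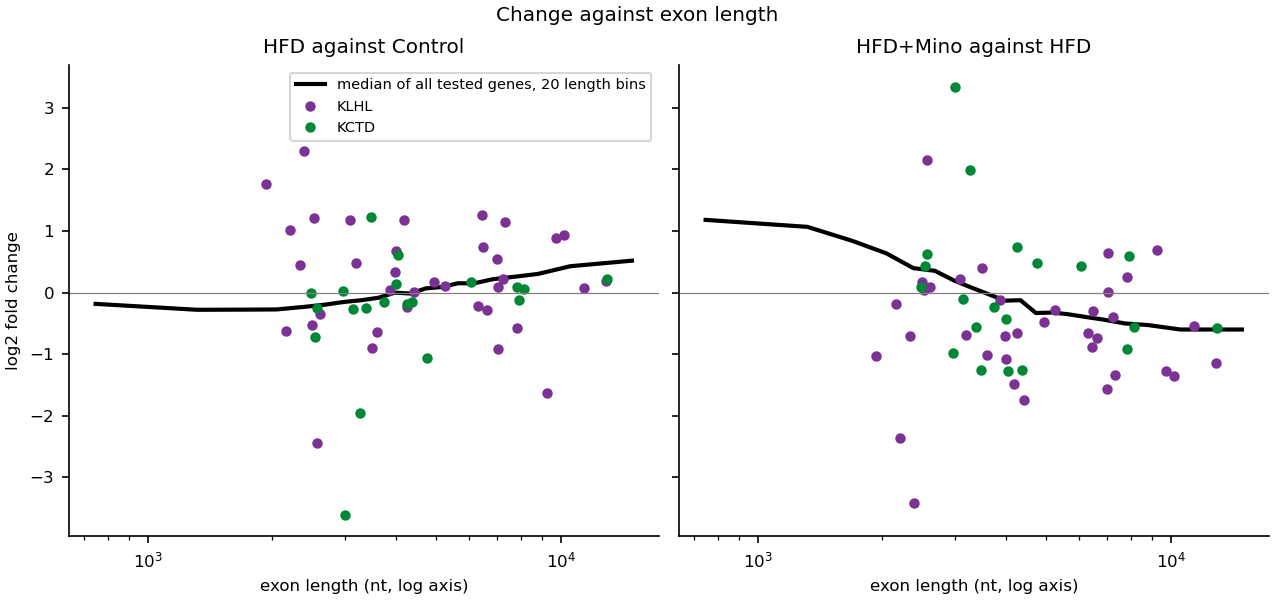
Log2 fold change (vertical axis) against exon length in bases (log axis) for KLHL and KCTD genes in HFD against Control (left) and HFD+Mino against HFD (right). The black line is the median of all tested genes in 20 length bins, which ran from 1.18 in the shortest to -0.60 in the longest bin in HFD+Mino against HFD.

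Around the adaptors, the ligase itself was measured through 24 genes of the cullin-3 core and of neddylation, the modification that activates cullins. Of these, 1 was called lower in HFD against Control and higher in HFD+Mino against HFD, Ube2m, the main NEDD8-conjugating enzyme, and 0 the other way, beside 1.42% of all tested genes lower in the first comparison and 1.98% higher in the second. Ube2m had 243.9, 182.8 and 142.9 CPM in Control, 11.4, 15.3 and 12.3 in HFD and 135.4, 90.5 and 189.0 in HFD+Mino (log2 -3.87 ± 0.33 and 3.41 ± 0.32, edgeR adjusted p = 0.000195 and 0.000492). Cul3 had 82.1, 99.97 and 103.5 CPM in Control, 20.3, 24.0 and 26.6 in HFD and 20.8, 48.3 and 73.5 in HFD+Mino (HFD against Control log2 -2.01 ± 0.38, edgeR adjusted p = 0.0115), and was not called. The Cul3 samples of HFD lay below all Control samples but overlapped HFD+Mino replicate 1. Rbx1, the RING subunit, had 380.9 ± 79.8, 301.0 ± 11.4 and 668.0 ± 256.2 CPM and was not called.

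Of 26 other BTB adaptors of cullin-3, Btbd1 and Btbd2 were called lower in HFD against Control and higher in HFD+Mino against HFD, and Kbtbd7 was called lower in HFD+Mino against HFD, where 1.98% of all tested genes were called higher and 2.16% lower. Btbd1 had 121.3, 139.7 and 131.2 CPM in Control, 19.1, 25.5 and 21.4 in HFD and 50.9, 73.1 and 109.5 in HFD+Mino, and its groups did not overlap. Kbtbd7 had 23.5, 27.7 and 34.4 CPM in Control, 46.8, 50.8 and 52.6 in HFD and 12.3, 12.6 and 21.3 in HFD+Mino, with HFD highest in every sample. Of 24 known substrates and partners, 23 were tested, and 1 was called lower in HFD against Control and 2 higher in HFD+Mino against HFD, beside the same shares of 1.42% and 1.98%. Dvl1, the Wnt signal transducer that Klhl12 targets, was called lower in HFD against Control (log2 -2.11 ± 0.30, edgeR adjusted p = 0.00265) and higher in HFD+Mino against HFD (1.56 ± 0.30, adjusted p = 0.00846). Eif4ebp1, the translation repressor 4E-BP1 that Klhl25 targets, was called higher in HFD+Mino against HFD (log2 2.08 ± 0.40, edgeR adjusted p = 0.00879). Wnk1, the kinase bound by Klhl2 and Klhl3, had 36.5 ± 16.7, 24.0 ± 3.03 and 43.9 ± 12.1 CPM and was not called.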

How the data were processed

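RNA of PVN punches from 9 mice, 3 per group, was sequenced by the authors. Per the labels and the methods, they aligned reads to mm10 (GRCm38) with HISAT2 and assigned them to genes with featureCounts, and they deposited the raw read counts per gene without normalization. Versions, the strand setting and the treatment of reads with several positions are not given in the sources used here.

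All 9 samples were fitted together with edgeR 4.0.16 (R 4.3.3): filterByExpr, TMM scaling, and the quasi-likelihood test with Benjamini-Hochberg adjustment over all 17344 tested genes. A call needed an adjusted p under 0.01 and a change of at least 1.5-fold. CPM were computed with TMM factors, and each SD covers 3 mice. Because the reads hold no molecular identifiers, no counting interval is given, and errors rest on differences among mice. No pair of replicates was alike within counting noise (the chi-square divided by its degrees of freedom ranged between 21.0 and 316). Symbols were missing for 958 genes. Exon lengths and GC content came from GENCODE M21 for 16832 tested genes and 56 members, and promoters and positions from RefSeq. The code was tested on simulated data.

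Members, roles and lists were chosen with earlier results of these data known. Named genes are those called in any comparison, the 3 largest rises and falls of each family in each of the 2 main comparisons, the 3 highest members of each family by CPM, the GABA-B, RhoA and WNK adaptors, Klhl11, Cul3, Rbx1, Gabbr1, Gabbr2, Wnk1, Rhoa and other list genes called. Further genes named were chosen after their values were seen.

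Samples with the same replicate number deviated together in Control and HFD+Mino (correlations across genes of 0.14, 0.16 and 0.29), but not in Control and HFD (-0.13, -0.11 and -0.01) or in HFD and HFD+Mino (-0.15, -0.12 and -0.05). The pairing comes from the counts alone, because the labels name no shared litter, batch or day. A block on the replicate number over Control and HFD+Mino is therefore given where it changed a count. Replicate numbers are those of the sample titles. In the sample descriptions the HFD libraries are HFD-03 to HFD-05, beside CTRL-01 to CTRL-03 and HFDMIN-01 to HFDMIN-03. Pairing with HFD, and the block over all 3 groups, thus went by title number. The number shared by description is 03, with correlations of 0.04 (Control replicate 3 and HFD replicate 1) and 0.02 (HFD replicate 1 and HFD+Mino replicate 3). Alternatives were DESeq2 1.42.0, a likelihood ratio test, other size factors, filters and thresholds, removal of Rn45s and mitochondrial genes, removal of length or GC trends, fits to 6 samples, and leaving out each sample.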

Additional observations from a re-analysis of the deposited data

How the results depend on the processing

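Numbers of members called are given in the order 3-way test, HFD against Control, HFD+Mino against HFD, with the shares of all tested genes called under the same setting in that order. The pairing by replicate number in Control and HFD+Mino, used as a block, gave 8, 6 and 10 KLHL genes and 3, 1 and 5 KCTD genes (all genes 13.2%, 6.22% and 25.6%), and the block over all 3 groups 2, 1 and 3 KLHL genes and 1, 1 and 1 KCTD genes (2.81%, 1.64% and 7.89%). The block with the length trend removed, added after the data were seen, gave 4, 4 and 6 KLHL genes, 1, 1 and 4 KCTD genes (8.12%, 5.19% and 15.4%) and a KLHL median of -0.49 in HFD+Mino against HFD. With the GC trend removed it gave 7, 6 and 11 KLHL genes, 2, 1 and 5 KCTD genes (13.5%, 7.62% and 27.7%) and 1 KCTD gene, Kctd20, lower in HFD+Mino against Control (5.56%).

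DESeq2 called 8, 8 and 9 KLHL genes and 3, 2 and 3 KCTD genes (15.5%, 7.83% and 26.1% of the genes with an adjusted p), the likelihood ratio test 8, 7 and 5, and 2, 2 and 2 (12.9%, 5.57% and 19.1%), and an adjusted p under 0.05 gave 8, 8 and 11, and 3, 2 and 7 (13%, 5.77% and 27.4%). In HFD+Mino against HFD the KLHL shares were thus near those of all genes or below them. In HFD against Control the KLHL shares under these settings were 22.2%, 18.9% and 21.6%, above those of all genes. The difference was not tested. No filter on low counts gave 5, 3 and 4, and 2, 2 and 2 (5.19%, 1.92% and 7.61%). A mean count of at least 50 gave 2 KLHL genes in HFD against Control (2.55%), and 3 KLHL genes (Klhl9, Klhl11 and Klhl24) and 2 KCTD genes in HFD+Mino against HFD (6.76%). Removing the length trend gave 2 KLHL genes in HFD against Control (2.3%) and a KLHL median of 0.03 in that comparison and -0.32 in HFD+Mino against HFD. Removing the GC trend gave 2 KLHL genes in the 3-way test (3.81%) and 2 in HFD against Control (2.8%). The 6 samples of HFD and Control alone gave 6 KLHL and 2 KCTD genes (3.67%), and those of HFD+Mino and HFD alone 1 KLHL gene (2.43%). How the length and GC trends were estimated was revised after results had been seen. With the length trend removed, Klhl9 was called under the estimate used here, and not under the earlier ones, which left out the TMM factors. Why these counts differ was not tested.

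Leaving out each library in turn gave 0 to 9, 0 to 4 and 0 to 8 KLHL genes and 0 to 3, 1 to 2 and 1 to 6 KCTD genes, and in HFD+Mino against Control 0 to 2 of each family. The share of all genes ran from 0.0168% to 13.4%, from 0.335% to 3.08% and from 0.162% to 21.4%, and from 0% to 6.28% in HFD+Mino against Control. The KLHL median then ran from 0.03 to 0.26 in HFD against Control, from -0.67 to -0.46 in HFD+Mino against HFD and from -0.60 to -0.26 in HFD+Mino against Control, and the KCTD medians from -0.14 to 0.01, from -0.22 to -0.06 and from -0.44 to -0.19 in HFD against Control, HFD+Mino against HFD and HFD+Mino against Control. The highest counts came without HFD+Mino replicate 3. No named member that was called under any of these settings changed sign. Other size factors and removal of Rn45s and the mitochondrial genes left each count as it was. With 3 mice per group and PVN markers that differed within groups, members that missed the threshold cannot be called equal between groups.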
